A study of Homo sapiens and Mus musculus with 61 samples.

Results

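The sgHBG guide was aimed at the HBG1 and HBG2 promoters, those of the duplicated fetal gamma-globin genes in the beta-globin cluster on chromosome 11, and was the first of 2 guides for that target. Its binding was compared with that of sgGal4, a non-targeting guide, in all 6808 regions of 300 bp that the authors listed for it, of 143198 regions in the 17 tables of the series. The members are therefore every listed region with its 4 sgHBG and 4 sgGal4 libraries, 8 of the 61 samples of the series. Each region was described by the log2 ratio of the mean linear sgHBG level to the mean linear sgGal4 level.

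All 8 libraries came from K562, a human leukaemia line, and all were made by CAPTURE-ChIP-seq. In that assay an inactive Cas9 (dCas9) with a biotin tag is steered to DNA by a single guide RNA; streptavidin beads capture it, and the bound DNA is sequenced. Both groups carried the biotinylated dCas9 and differed in the guide. The labels give no treatment or time, and do not say how dCas9 was expressed, whether the cells were 1 clone or whether replicates were separate cultures. The p-values below thus reflect only how the deposited levels of the libraries vary, and that variation may be technical. The data hold no expression, so the cell label was not checked against marker genes.

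Gamma-globin is the beta-type chain of fetal haemoglobin, and HBG1 and HBG2 arose by duplication, so that their promoters are nearly the same sequence. dCas9 binds where a protospacer that pairs with the guide lies beside a PAM, here NGG. The bases of the protospacer next to the PAM, the seed, pair first.

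The promoters of the 2 genes were identical for 222 bases upstream of the start, and 284 of 285 aligned bases of the listed parts were the same.

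The guide's own sequence was not given in the sources used here. There were 56 stretches of 20 bases followed by NGG that were unchanged in both target regions extended by 100 bp. Of these, 1 candidate, printed below at HBG1 and HBG2, was the one whose 10 PAM-proximal bases recurred in most listed regions, 66 outside the globin cluster. None of the other 55 candidates recurred in more than 7. The candidate was picked with the ratios in view, so the counts on it below are a description of these regions and carry no test. Its last 10 bases, ACCCATGGGT, read the same on both strands.

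Sites that match the candidate from the PAM inwards are printed here to show which bases they share with it. Capitals mark the unbroken match counted from the PAM, the last 3 letters are the PAM, and each site is named by the gene with the nearest start.
HBG1, chr11:5271218-5271240, minus strand: GCTAAACTCCACCCATGGGTtgg
HBG2, chr11:5276142-5276164, minus strand: GCTAAACTCCACCCATGGGTtgg
SYF2, chr1:25546793-25546815, plus strand: aaattgaaCCACCCATGGGTagg
RRAGD, chr6:90095041-90095063, plus strand: aaatctactCACCCATGGGTagg
PCBD1, chr10:72667391-72667413, minus strand: cctccctgCCACCCATGGGTcgg
AOPEP, chr9:97852066-97852088, minus strand: gacaggtcCCACCCATGGGTcgg
PDGFA, chr7:521656-521678, minus strand: tctcacaaCCACCCATGGGTagg
PLEKHA5, chr12:19208782-19208804, plus strand: agtagagagaACCCATGGGTagg
SLC30A5, chr5:68004990-68005012, minus strand: gctcagcaggACCCATGGGTagg
TAS2R19, chr12:11169732-11169754, plus strand: cttattttaCACCCATGGGTggg
MYRIP, chr3:40108760-40108782, minus strand: gctcaaaTCCACCCATGGGTagg
C16orf95, chr16:87070905-87070927, minus strand: cccttcCTCCACCCATGGGTggg
GCNT3, chr15:59917164-59917186, minus strand: tttcctgTCCACCCATGGGTggg
Site not listed, chr19:617737-617759, minus strand: gcctcagTCCACCCATGGGTggg
Site not listed, chr15:20744061-20744083, minus strand: gataaactggtCCCATGGGTggg

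The listed regions held between 17857 and 106873 recovered reads in the sgHBG libraries, 93779 and 52179 in sgGal4 replicates 2 and 1, and 9205 and 8902 in sgGal4 replicates 3 and 4. These sums are not the depth of the libraries. Regions with 0 reads made up 2.78% to 20.7% of the list in sgHBG libraries, 5.20% and 7.30% in sgGal4 replicates 2 and 1, and 35.2% and 33.7% in sgGal4 replicates 3 and 4. The reads of sgGal4 replicates 1 and 2 agreed within sampling noise, with a chi-square of 0.954 per degree of freedom over 5515 regions. They were counted as 1 sample, which leaves 3 sgGal4 samples. For sgHBG replicates 3 and 4 the value was 1.17 over 5131 regions. Without the 1% of regions that differed most it was 0.959, against 0.887 for sgGal4 replicates 1 and 2. The 2 sgHBG libraries were kept as 2 samples, and the counts with them as 1 sample are given below. Fits used limma with Benjamini-Hochberg adjustment over all 6808 regions. A count of 0 has its own deposited log2 level in each column: -0.78, -1.72, 2.31 and 2.29 in sgGal4 replicates 1 to 4. Where all 4 held 0, as at HBG1, these levels alone set the sgGal4 mean and spread in the ratio and the fit. Outside the cluster the median ratio of all regions was -0.17.

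The 2 target regions had the highest ratios of the list. At HBG1 (chr11:5271083-5271382, the promoter and the first bases of exon 1) the 4 sgHBG libraries held 4293, 275, 1432 and 2632 reads, and each of the 4 sgGal4 libraries held 0. At HBG2 (chr11:5276001-5276300, the same part of that gene) the sgHBG libraries held 4824, 245, 1662 and 2958 reads, and the sgGal4 libraries 4, 4, 0 and 0. The groups did not overlap at either gene, and replicate 2, the sgHBG library with the fewest reads in listed regions, was the lowest of its group.

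The log2 ratio was 9.62 at HBG1, where limma's difference of the mean log2 levels was 9.61 (SE 0.87, adjusted p = 0.00014). It was 9.25 at HBG2, with a difference of 8.81 (SE 0.67, adjusted p = 3.6e-05). As shares of the reads in listed regions summed over the group, sgHBG was 793-fold above sgGal4 at HBG2. At HBG1 it was at least 1884-fold higher, against a floor of 3 reads over the sgGal4 group. The log2 ratio and these folds are on different scales and weight the libraries differently.

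Both target regions together took 13.6% of the listed reads of sgHBG replicate 1, 2.91% of replicate 2, 5.26% of replicate 3 and 5.23% of replicate 4. At HBG1 alone the share was 6.40% in replicate 1 (95% Clopper-Pearson interval 6.22% to 6.59%) and 1.54% in replicate 2 (1.36% to 1.73%). The interval covers counting error only, since reads without molecular identifiers are not independent molecules. The share thus differed between sgHBG libraries beyond counting error, with replicate 1 highest. A count of 0 at HBG1 allows a share of up to 0.0032% in sgGal4 replicate 2 and up to 0.0337% in sgGal4 replicate 4. No region overlapping either target by at least 150 bp was listed in any of the 16 other tables, that of the second gamma-globin guide, sgHBG-sg2, included. Shorter overlaps were not counted. Of the 6591 regions listed for sgHBG-sg2, 6588 lay outside the cluster. The others lay inside it, and their positions and ratios are not given here. Whether sgHBG-sg2 bound the HBG1 and HBG2 promoters was thus not tested.

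**Figure D1:**
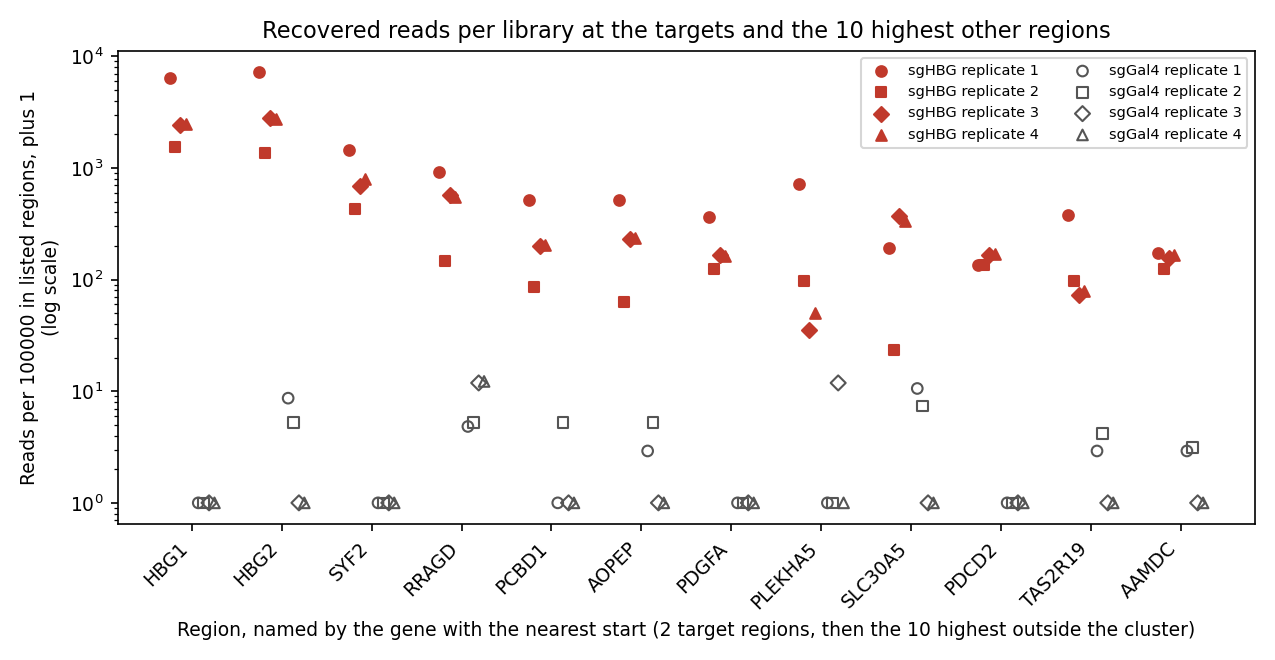
Recovered reads per 100000 reads in listed regions, plus 1, on a log axis, for the 2 target regions and the 10 regions with the highest ratio outside the cluster. Each point is 1 library. At HBG1 and HBG2 every sgHBG library lies above 1000, and every sgGal4 point lies below the sgHBG points of its region. The gap is small in places: near SLC30A5 sgHBG replicate 2 had 22.4 reads per 100000 and sgGal4 replicate 1 had 9.58.

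The 2 genes drew about the same number of reads in each library. HBG1 had 47.1%, 52.9%, 46.3% and 47.1% of the reads of the pair in sgHBG replicates 1 to 4. The log2 ratio of HBG1 to HBG2 reads averaged -0.10 (SD 0.18, n = 4 libraries), and 3 of 4 libraries were below 0. An exact two-sided sign-flip permutation test gave p = 0.25, and 4 libraries allow none below 0.13. Per the labels' protocols, only reads with 1 location in the genome were kept, so reads lying wholly within bases that the 2 genes share were not counted at either; the part of this in the HBG1 to HBG2 ratio was not tested.

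The rest of the globin cluster showed little. It held 2 other listed regions, in a window reaching past 3'HS1 and HS5, the hypersensitive sites at its ends. The region between the 2 genes (chr11:5273371-5273670) had 3, 2, 3 and 5 reads with sgHBG and 7, 14, 0 and 2 with sgGal4, a log2 ratio of -0.79 (adjusted p = 0.32). The region at chr11:5312517-5312816, in an intron of long annotated transcripts of HBE1 and HBG2, had 9, 5, 15 and 15 reads with sgHBG and 6, 11, 2 and 2 with sgGal4, a log2 ratio of 0.38 (adjusted p = 0.79). Neither passed the test. HBB, HBD and HBE1 had no listed region with the nearest start within 10000 bp, nor did any of 5 alpha-globin genes.

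Listed regions near genes that regulate gamma-globin or red cell formation were counted next. Of 30 gamma-globin regulators, 5 had regions within 10000 bp of a start, 7 in all, and 0 were called in either direction, where 2.54% of all regions outside the cluster were raised and 9.38% lowered at adjusted p; their median ratio was 0.80, against -0.17 for all regions. The highest was near ATF4, a stress-response factor, with 8, 2, 13 and 27 sgHBG reads against 4, 3, 0 and 0 and a ratio of 1.55 (adjusted p = 0.073). The lowest was in EHMT1, a histone methyltransferase, with a ratio of -1.46 (adjusted p = 0.080). Of 15 erythroid regulators, 5 had 8 regions, 0 were called, and the median ratio was 0.39. Both extremes lay near ZFPM1, a cofactor of GATA1, at 1.26 (adjusted p = 0.17) and -1.61 (adjusted p = 0.056). Of all 15 regions of both lists, those at an unadjusted p below 0.05 numbered 4 among the gamma-globin and 1 among the erythroid regulators, against 30.8% of all regions outside the cluster.

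Outside the cluster, 9 of 6804 regions (0.132%) passed both a ratio of 1 or more (log2) and a p limit of 1e-05 in limma. With an adjusted p below 0.05 in its place, 173 regions (2.54%) were raised, and 638 (9.38%) had a ratio of -1 or below and were lowered. These counts rest on single libraries. Without sgHBG replicate 1, 3 or 4, between 14 and 16 regions were raised and 0 or 1 lowered, and 1 passed the p limit. Without sgGal4 replicate 3 or 4 the counts were 52 and 24 raised and 7 and 0 lowered. The p limit was passed by 3 and 2 regions without those, and by 4 without sgGal4 replicate 1. Without sgHBG replicate 2, 1019 were lowered. With sgHBG replicates 3 and 4, the most alike of the sgHBG libraries, counted as 1 sample, 15 were raised and 1 was lowered.

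The highest region outside the cluster belonged to SYF2, which encodes a splicing factor and starts 12028 bp away. At chr1:25546650-25546949 the sgHBG libraries held 975, 76, 406 and 851 reads and the sgGal4 libraries 0 in all 4. Every sgHBG library was far above every sgGal4 library. The log2 ratio was 7.65 (adjusted p = 0.00091), and as shares of listed reads sgHBG was at least 504-fold higher against the floor of 3 reads over the group.

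Next came an intron of RRAGD, a GTPase gene of amino acid sensing. At chr6:90094921-90095220 the sgHBG reads were 615, 26, 337 and 589 and the sgGal4 reads 2, 4, 1 and 1, with a ratio of 6.0 (adjusted p = 0.0060). The region near PCBD1, a pterin-recycling enzyme gene, had 346, 15, 116 and 218 reads against 0, 4, 0 and 0 and a ratio of 5.69. The groups did not overlap at any of these. The region near AOPEP, an aminopeptidase gene, had 345, 11, 135 and 251 reads against 1, 4, 0 and 0 and a ratio of 5.67. The region near PDGFA, a growth factor gene, had 243, 22, 98 and 173 reads against 0 in all 4 and a ratio of 5.55. All 5 of these regions lay over 10 kb from the nearest start and held 11 or 12 unbroken bases of the candidate next to an NGG.

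The other 4 regions at the p limit held no such match. They were near PDCD2 (5.06), in AAMDC and INTS4 (4.92), near METRNL (4.08) and at the start of MCU (3.20). MCU, the pore of the mitochondrial calcium uniporter, had 66, 15, 47 and 93 sgHBG reads against 3, 19, 0 and 0. All 4 were listed for other guides, and each had a ratio of at least 1 in only 1 of those tables. At PDCD2, AAMDC and METRNL it was 3.64, 3.96 and 2.18 for sgHS3-sg2, a guide with 1 library. At MCU it was 2.65 for sgHS5. METRNL was listed in all 16 other tables, with a ratio of 0.20 for sgHBG-sg2. Those tables share the sgGal4 libraries. The members nearest the p limit were PDGFA and AOPEP inside it, and 2 regions near the olfactory receptor genes OR4F16 (4.86) and OR4F21 (4.68) outside it.

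Among the 10 highest regions outside the cluster, 3 others were near PLEKHA5, SLC30A5 and TAS2R19. Near PLEKHA5 the sgHBG reads were 484, 17, 20 and 53, against 0, 0, 1 and 0, with a ratio of 5.28 (adjusted p = 0.029). Replicate 1 held most of the reads there. Near SLC30A5, a zinc transporter gene, the reads were 127, 4, 216 and 359 against 5, 6, 0 and 0, with a ratio of 5.10 (adjusted p = 0.019). Near TAS2R19, a bitter taste receptor gene, they were 252, 17, 42 and 83 against 1, 3, 0 and 0, with a ratio of 4.93 (adjusted p = 0.011). The first 2 of these calls were lost without any 1 of sgHBG replicates 1, 3 and 4 or sgGal4 replicates 3 and 4; that of TAS2R19 was not lost in any of the 17 alternative fits.

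The authors' deposited table tags 2 regions as off-target. One lies in an intron of MYRIP, a gene for a linker between a Rab protein and myosin. At chr3:40108611-40108910 the sgHBG reads were 165, 1, 85 and 147 and the sgGal4 reads 2, 6, 0 and 1, with a ratio of 4.17 (adjusted p = 0.039). Replicate 2 lay within the sgGal4 range there, and the call was lost without sgHBG replicate 1, 3 or 4 or sgGal4 replicate 1, 3 or 4. Among genome sites outside the cluster with at least 8 unbroken bases, its site had the fewest mismatches to the candidate, 2, which were A4C and C7A, counted from 1 at the PAM-distal end, the candidate's base first. The other tagged region covers the start of AGPAT4, a lipid acyltransferase gene. At chr6:161694947-161695246 the sgHBG reads were 9, 2, 16 and 31 and the sgGal4 reads 2, 5, 0 and 0. Its ratio of 1.82 did not pass the adjusted threshold (adjusted p = 0.055), and it held no match of 8 or more bases.

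The 10 PAM-proximal bases of the candidate with NGG were present in 66 of the 6804 listed regions outside the cluster (0.970%). They were present in 5 of the 9 regions at the p limit, in 35 of the 173 raised at adjusted p (20.2%) and in 0 of the 638 lowered. Of the 66, 61 had a ratio of at least 1, 43 of at least 2 and 0 were below 0, and their median ratio was 2.78. All 66 belong to the 1021 regions that no other table lists. The other 955 of those had a median ratio of 0.92; 91.9% of them were above 0, 46.6% were at 1 or more, 11.1% were at 2 or more and 7.75% were raised. A region listed only for sgHBG can be there through its sgHBG reads, so these ratios are not independent of the listing. In 37 of the 66 every sgHBG level lay above every sgGal4 level, against 7.97% of all regions outside the cluster, most of which other tables list as well. The count of 35 fell to 7 without sgHBG replicate 1, 3 or 4 and with replicates 3 and 4 counted as 1, and to 15 and 8 without sgGal4 replicates 3 and 4.

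**Figure D2:**
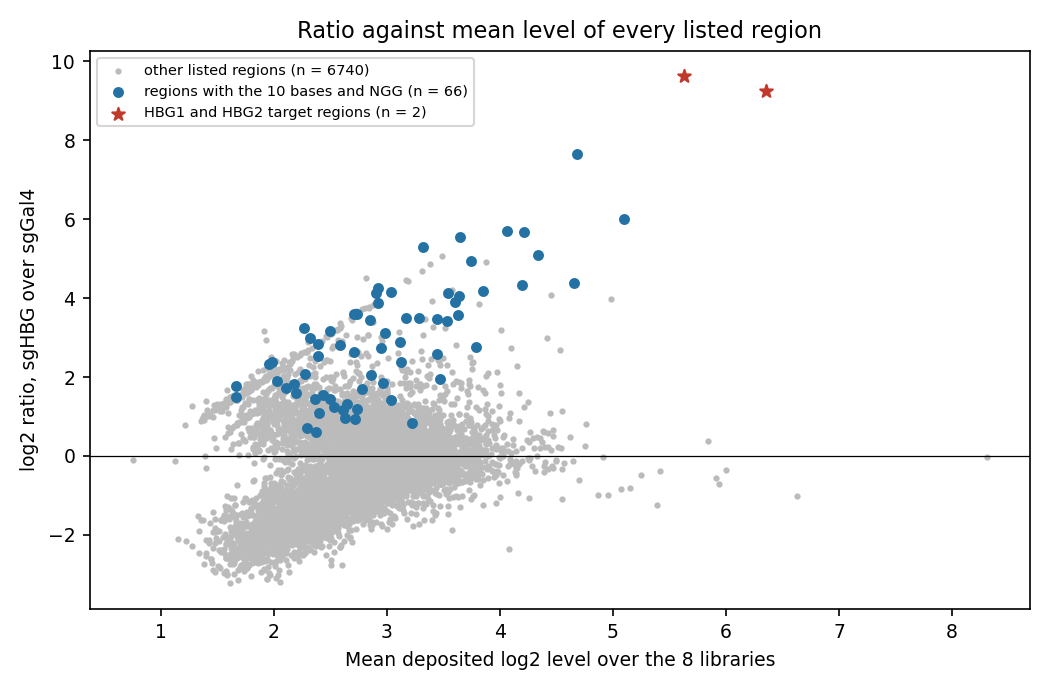
The log2 ratio of sgHBG over sgGal4 (vertical) against the mean deposited log2 level over the 8 libraries (horizontal), 1 point per listed region. The 66 regions with the 10 bases and NGG, none listed for another guide, lie above 0, as do 91.9% of the 955 other regions listed for sgHBG alone, and the 2 target regions lie highest.

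In sum over the 66 regions, the sgHBG libraries held 10.1%, 2.06%, 4.94% and 5.01% of their listed reads, and the sgGal4 libraries 0.157%, 0.170%, 0.391% and 0.337%. The sgHBG libraries all lay above the sgGal4 libraries. Replicate 1 was highest and replicate 2 lowest, as at the targets. For each read at the 2 targets there were 0.746, 0.708, 0.940 and 0.958 reads at the 66 regions in replicates 1 to 4. Over the 66 regions the median was 45.5, 3, 20 and 40 reads in the sgHBG libraries and 1, 2, 0 and 0 in the sgGal4 libraries, and replicate 2 had 0 reads in 10 of them.

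None of the 66 regions was listed in any of the 16 other tables, counting an overlap of at least 150 bp. More broadly, the 10 bases with NGG were present in 0 of the 136345 regions outside the cluster in those tables. Of the 138 raised regions without the bases, 64 (46.4%) were listed for another guide and 51 had a ratio of at least 1 there. That is a smaller share listed elsewhere than among all 6804 regions outside the cluster. Of those, 3399 were listed in all 16 other tables, 2384 in some and 1021 in none.

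Counted in the genome, sites with longer matches next to the PAM, up to 12 bases, were listed in larger shares. Outside the cluster, chromosomes 1 to 22 and X held 3654 sites with 8 unbroken matching bases, of which 15 were in listed regions and 1 was raised. Of 154 sites with 10 bases, 24 were listed and 9 raised, and of 39 sites with 11 bases, 22 were listed and 10 raised. All 15 sites with 12 bases were listed, and 12 of them were raised. Of the 6 sites with 13 or 14 bases, 5 were listed and 4 raised. The median ratio of the listed sites was 1.21 at 8 bases, 1.57 at 9, 2.00 at 10, 2.57 at 11 and 4.12 at 12. A region entered the list by the authors' calls, so the share listed is not independent of the reads, and a site that is not listed has no value.

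**Figure D3:**
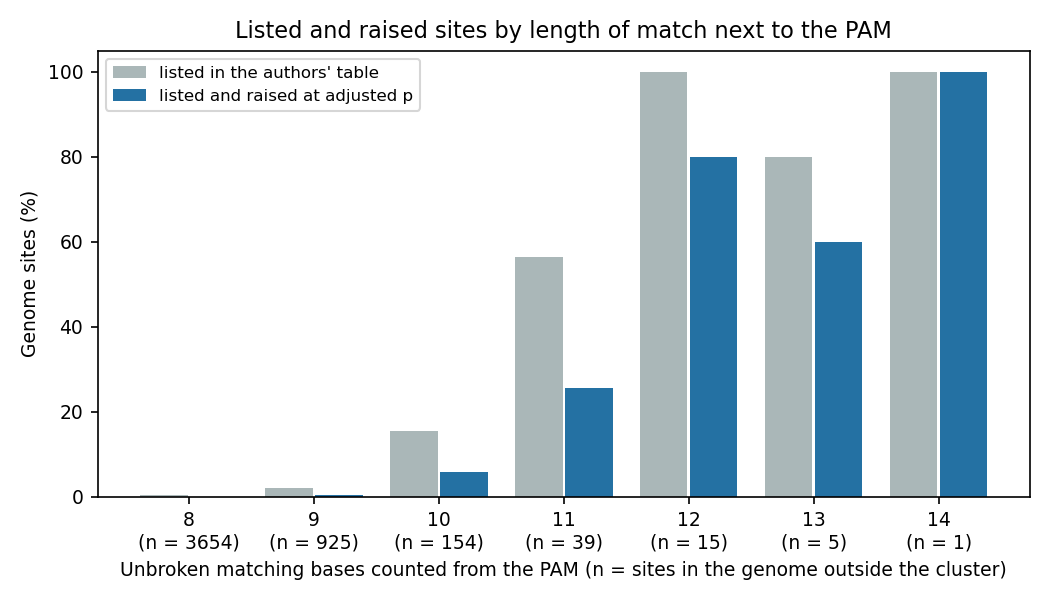
Share of genome sites outside the cluster, in percent, that were listed (grey) and that were listed and raised at adjusted p (blue), by the number of unbroken matching bases counted from the PAM. The share listed goes from 0.411% at 8 bases to 100% at 12, where 80% were raised.

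Mismatches over all 20 bases were counted for the same sites. Of the 15 sites with at least 12 unbroken bases and 6 or more mismatches, 15 were listed and 11 raised. Of the 67 sites with 8 or 9 unbroken bases and at most 5 mismatches, 0 were listed. The SYF2 site had 8 mismatches and a ratio of 7.65, whereas the 10 sites with 4 mismatches were not listed. Among those 10 was the site on chromosome 19 printed above, with 13 unbroken bases and 1273 bp from a start. Others of them, at chr15:20744061-20744083, chr15:22739277-22739299 and chr15:23411158-23411180, had the same bases and PAM as each other. Only uniquely placed reads were kept, and whether reads could be placed at the sites not listed was not tested. The site near C16orf95, with the longest match (14 bases), had 68, 3, 59 and 93 sgHBG reads against 3, 2, 1 and 0 and a ratio of 3.42 (adjusted p = 0.023). That near GCNT3, with 13 bases, had a ratio of 1.45 and did not pass (adjusted p = 0.34). The C16orf95 call was lost without sgHBG replicate 1, 3 or 4 or sgGal4 replicate 3 or 4.

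The match lay close to the middle of its region. The median distance from the centre was 6.0 bp, and 63 of the 66 sites lay within 25 bp of it. At the targets the candidate lay 8.5 bp from the centre of the HBG1 region and 2.5 bp from that of HBG2. Of the 66 regions 53.0% were intergenic and 36.4% intronic, and 2 lay within 1 kb of a start, against 20.0% of all listed regions outside the cluster.

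**Figure D4:**
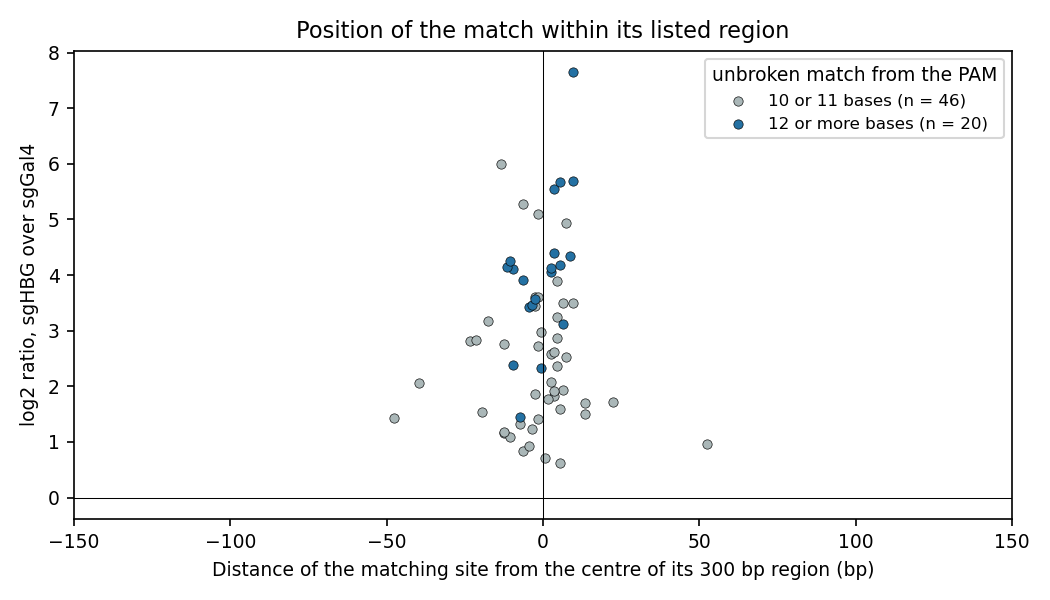
The log2 ratio of sgHBG over sgGal4 (vertical) against the distance in bp of the matching site from the centre of its 300 bp region (horizontal), for the 66 regions with 10 or more unbroken bases. Sites with 12 or more bases are blue; 63 of 66 sites lie within 25 bp of the centre.

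The raised regions without the 10 bases numbered 138, with a median ratio of 2.5. Of the 138, 31 lay within 500 kb of a chromosome end, as did 121 of all 6804 regions (1.78%). Near OR4F21, an olfactory receptor gene, the sgHBG reads were 64, 23, 81 and 117 against 0 in all sgGal4 libraries, with a ratio of 4.68 (adjusted p = 0.0089). The region near PDCD2 at the end of chromosome 6 had 89, 24, 97 and 179 reads against 0 in all 4. In 20 of the 31 all 4 sgGal4 libraries were at 0, and 12 of the 31 had a ratio of at least 1 for another guide as well. Each of those 12 reached it in only 1 other table. That was the table of sgHS3-sg2, a guide with 1 library, for all but the region at chr6:148390-148689 (2.78 for sgHBG-sg2).

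A further 21 of the 138 lay within 1 kb of a start (15.2%), against 20.0% of all listed regions outside the cluster. The highest were at WDR73 (4.21), CMPK1, a nucleotide kinase gene (3.91), TAF7, a TFIID subunit gene (3.85), and FAM185A (3.48), which were chosen after their values were seen. At WDR73 the sgHBG reads were 126, 12, 93 and 155 against 0, 0, 2 and 0. The calls of WDR73, CMPK1 and TAF7 were lost in 5 of 17 alternative fits each; that of FAM185A was kept. Of the 21, 16 were listed in another table, and 12 had a ratio of at least 1 there. The share listed elsewhere was again smaller than among all listed regions outside the cluster.

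The 638 lowered regions held a median of 1, 0, 1 and 2 reads in the sgHBG libraries and 9, 14, 1 and 2 in the sgGal4 libraries, which describes the values that chose them. A count of 0 has a log2 level of 0, 1.51, -0.40 and -1.19 in sgHBG replicates 1 to 4. In sgGal4 replicates 3 and 4 that level is 2.31 and 2.29. With the levels of a 0 count in all 8 libraries, a region without any reads would meet the ratio limit of -1 or below. The part of these levels in the lowered calls was not tested. In the 5 lowest, near or in ETAA1 (-3.23), GRIA1 (-3.19), MYO9B (-3.14), GRID1 (-3.13) and PATL1 (-3.11), no sgHBG library held more than 2 reads. At ETAA1 the sgHBG libraries held 0 in all 4 and the sgGal4 libraries 5, 11, 5 and 2 (adjusted p = 0.019). Each of these 5 calls was lost in at least 3 alternative fits, those without sgHBG replicate 1 or 3 or sgGal4 replicate 4 included. Of the 638, 24 lay within 1 kb of a start (3.76%), and their median GC content was 38%.

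Whether a region was also listed for other guides moved with its ratio. Of the 6804 regions, 3399 (50%) were listed in all 16 other tables, with a median ratio of -0.96; 618 of them were lowered and 2 raised. Another 2384 were listed in some of them, with a median ratio of 0.36, 62 raised and 20 lowered. The 1021 regions listed in no other table had a median ratio of 0.99, and 109 of them were raised and 0 lowered. All tables share the sgGal4 libraries, and the part of the way regions were listed in the ratios, and in the raised and lowered calls, was not tested.

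**Figure D5:**
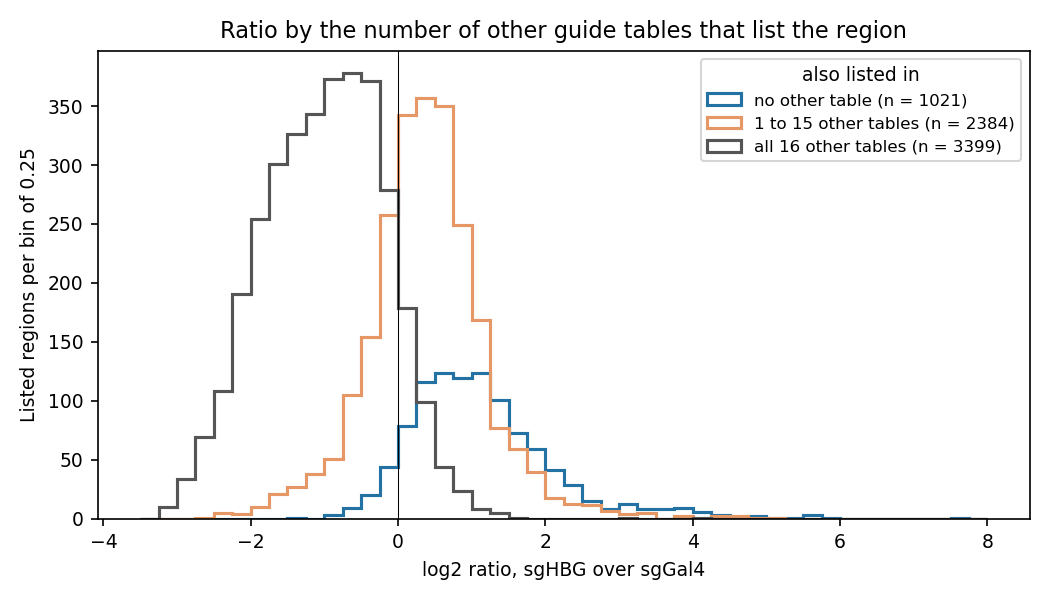
Number of listed regions outside the cluster per bin of 0.25 of the log2 ratio of sgHBG over sgGal4, by the number of other guide tables that list the region. Regions listed in all 16 other tables lie mostly below 0 (median -0.96) and regions listed in none mostly above 0 (median 0.99).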

How the data were processed

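Bowtie 1.0.0, Picard and the hg19 build are named for the alignment, per the submitters' processing notes, and only uniquely placed reads were kept, per the labels' protocols. How regions were called and levels normalised is not given in the sources used here. The authors deposited log2 levels, as the values show; each column is linear in log2(whole number), with its own start and slope. Read numbers were taken as that whole number less 1; 100% of values came out whole within 0.01. The deposited log2 ratio was recomputed within 4.3e-11.

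Because these values are no counts, the tests used limma 3.58.1 (R 4.3.3) with empirical Bayes variances, no trend and Benjamini-Hochberg adjustment. The plan had 4 sgGal4 samples; replicates 1 and 2 were averaged as 1 sample after their reads were compared, and the fit with both is an alternative. In simulated data of this comparison over 6808 regions, 40% of regions raised by 2 and 99.5% of those raised by 4 on the log2 scale were recovered at adjusted p, with 6 false calls. The simulation drew independent normal noise around the mean level of each region. It left out the levels of a 0 count and the likeness between libraries, so it cannot give the number of false calls in the data.

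Gene starts are those of protein-coding transcripts in GENCODE 44 on GRCh37, whose coordinates are those of hg19; a region is named by the nearest start. Sequences were read from the GRCh37 genome. Named regions were the targets, the cluster, all regions at the p limit, the 10 highest, the authors' tagged regions, the 5 lowest, and the extremes of each list; sites were added after their matches were seen. Members and lists were chosen with earlier results of these data known. Libraries labelled sgHBG with Streptavidin, Cas9 or Flag were not analysed here. Alternatives were other scales, pseudocounts of 1 and 5, a variance trend, a replicate block, a filter at 10 reads, other sets of sgGal4 libraries and leaving out each library. One sequence is not reported here.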

Additional observations from a re-analysis of the deposited data

Results flagged for a closer look

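Dixon's test was applied to the 4 sgHBG levels of 41 regions, of which chance flags about 1 in 20; 2 were picked out. Near TAS2R19 the highest sgHBG library had a log2 level of 7.98, and the next 5.54. Near C16orf95, the region with the longest match, the lowest sgHBG library had a log2 level of 3.41, and the next 5.71.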

How the results depend on the processing

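The HBG1 and HBG2 ratios kept their direction and an adjusted p below 0.05 in limma in all 17 alternatives, between 8.38 and 12.22 for HBG1 and between 8.13 and 9.69 for HBG2; the highest came with sgGal4 replicates 1 and 2 alone. That fit has 1 sgGal4 sample, taken to vary like sgHBG. The counts of calls moved far more. At the p limit the 9 regions became 32 and 56 on recovered reads with pseudocounts of 1 and 5, 23 with a variance trend, 35 with sgGal4 replicates 1 and 2 alone, 2 with sgHBG replicates 3 and 4 as 1 sample, and 1 to 11 when a library was left out. The 173 raised became 398 and 357 on recovered reads, 707 with sgGal4 replicates 1 and 2 alone, 334 with those as separate samples, 15 with sgHBG replicates 3 and 4 as 1 sample, and 14 to 195 when a library was left out. The 638 lowered became 323 and 396 on recovered reads, 237 with a trend, 404 at a ratio of -2 or below, 19 with sgGal4 replicates 1 and 2 alone, 1 with sgHBG replicates 3 and 4 as 1 sample, and 0 to 1019 when a library was left out; at an unadjusted limma p below 0.05, 1531 were lowered and 548 raised. The cause was not tested. With a replicate block the counts were 6 at the p limit, 264 raised and 500 lowered; same-numbered libraries had correlations of -0.02, 0.11, 0.06 and 0.06, so the numbers were not taken to pair them. With 12 PAM-proximal bases the share of raised regions that held the match was 9.25%, and with 8 it was 22.5%. The 39 other named regions gave 663 values in the alternatives, of which 547 kept direction and side of the threshold, 11 gained the call, 0 turned direction and the rest lost the call. Of 26 raised named regions 12 kept the call in all 17 alternatives, and of 5 lowered ones 0 did. Fits that merge sgHBG replicates 3 and 4 or keep sgGal4 replicates 1 and 2 apart were chosen after seeing the data. In sgGal4 replicates 3 and 4, 35.2% and 33.7% of listed regions were at 0 reads; the part of this in the calls was not tested.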
